A study of Bos taurus with 26 samples.

Results

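Gene expression in the corpus luteum was compared of Holstein cows between 2 lines, one labelled high fertility (Fert+) and one labelled low fertility (Fert-). The corpus luteum libraries were chosen by their tissue label alone: 12 of the 26 libraries of the series, of which 7 were Fert+ (replicates 15, 16, 18, 19, 21, 23 and 24) and 5 were Fert- (replicates 17, 20, 25, 27 and 28). The other libraries are endometrium of the same lines. All corpus luteum samples were biopsies taken on day 13 of the oestrous cycle, with no treatment named in the labels, and polyadenylated RNA was sequenced from each. Fert+ replicates 15 and 18 were batch 4 and parity 3, replicate 16 was batch 3 and parity 3, replicate 19 was batch 2 and parity 4, replicates 21 and 24 were batch 1 and parity 2, and replicate 23 was batch 3 and parity 4. Fert- replicate 17 was batch 2 and parity 4, replicates 20 and 28 were batch 1 and parity 4, and replicates 25 and 27 were batch 3 and parity 3. The labels give no age, do not say what a batch stands for and leave unsaid whether the libraries are from separate animals, so p-values measure the spread between these libraries. The growth of the lines is described only by a citation, so the genetic difference behind a line is not given in the sources used here.

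The corpus luteum is the gland that forms from the ovulated follicle. Its steroidogenic luteal cells turn cholesterol into progesterone, which prepares the endometrium for the embryo, and they lie among endothelial cells, fibroblasts and immune cells. In a cycle without pregnancy the gland regresses when prostaglandin from the uterus reaches it. Day 13 lies before that regression. The files hold Ensembl gene IDs without symbols and not one could be paired with the gene name table (0 matches among 24616 IDs), so markers of luteal or other cells, and gene lists for steroid synthesis, luteolysis, blood vessels or immunity, were not analysed here. Results are given by the level of an ID, by its preference for luteal or endometrial tissue, and by 4 IDs shown in every library. In bulk tissue, fewer cells of a type and less RNA per cell cannot be told apart.

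Total counts ran from 12665680 to 18008417 in Fert+ and from 11924906 to 17798119 in Fert-. The IDs that could be tested, 13462 of them, held at least 99.3% of the counts of each library. Libraries were first compared pair by pair over the log2 CPM (counts scaled to a common library size and by TMM, the trimmed mean of M values) of these IDs. Within Fert+ the median Pearson's r over 21 pairs was 0.954 (range 0.938 to 0.982), within Fert- it was 0.95 over 10 pairs (0.922 to 0.975), and between lines it was 0.941 over 35 pairs (0.895 to 0.979). Every pair shares the same IDs and their base levels, so only the order of these values is informative. Fert+ replicates 15, 16, 18 and 19 correlated with each other at 0.976 to 0.982 and with Fert+ replicates 21, 23 and 24 at 0.938 to 0.955. Those 3 libraries in turn correlated with the Fert- libraries at a median of 0.967. For 7 of the 12 libraries the most alike library was of the same line. Fert+ replicate 23 was most like Fert- replicate 25 (0.979), and Fert- replicates 25, 27 and 28 were each most like Fert+ replicate 23. Fert- replicate 20 was most like Fert+ replicate 24 (0.977). The 4 Fert+ libraries that stand apart include all Fert+ libraries of parity 3 and batch 4 and neither of those of parity 2 and batch 1, so parity, batch and this split overlap in part.

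**Figure D1:**
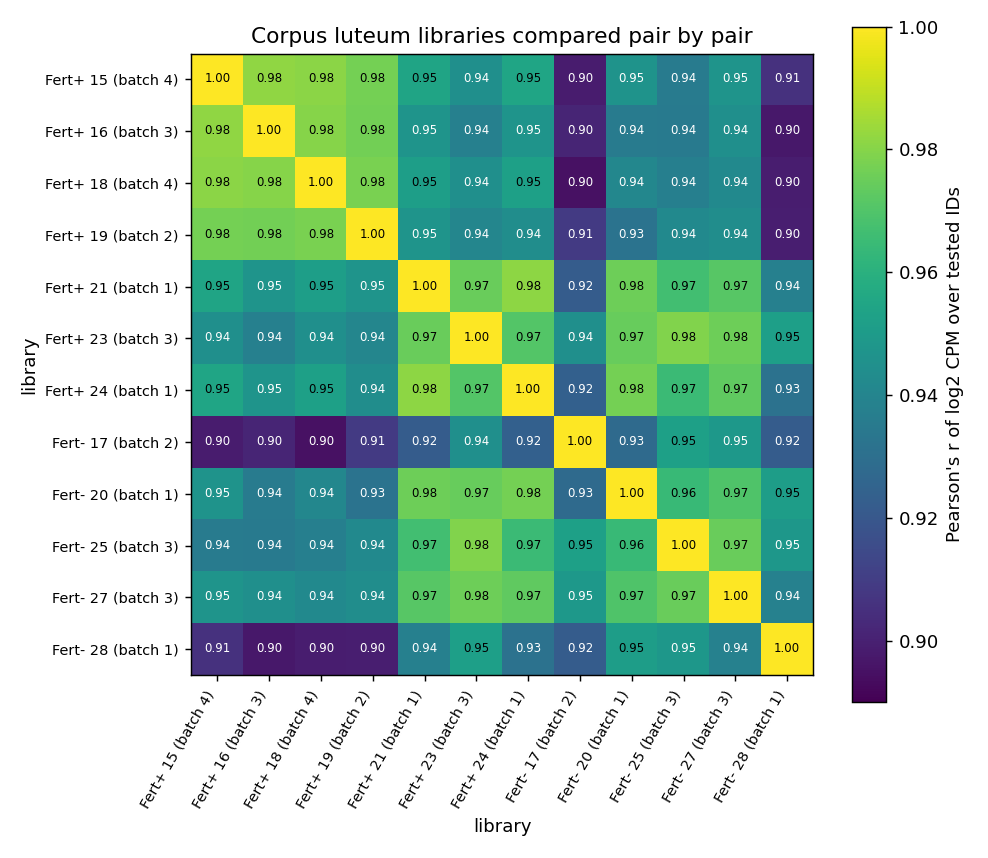
Pearson's r of log2 CPM over the tested IDs for each pair of the 12 corpus luteum libraries, from dark (low) to yellow (high), with line, replicate and batch on both axes. Fert+ replicates 15, 16, 18 and 19 form a block of 0.976 to 0.982, while Fert+ replicates 21, 23 and 24 sit closer to most Fert- libraries than to that block.

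The main comparison asked which transcripts differ between the lines in this tissue, with batch in the model. No ID passed an adjusted p under 0.05 in edgeR's quasi-likelihood test (0 of 13462, 0%). The lowest adjusted p was 0.212, and 1290 IDs shared it. The adjustment gives each ID the lowest value reached at its own or any larger p-value. The unadjusted edgeR p still differed among these IDs, with 0.000229 for ENSBTAG00000005868 and 0.0202 for ENSBTAG00000013098. At an unadjusted p under 0.05 there were 2845 IDs (21.1%), with 1632 (12.1%) at higher and 1213 (9.01%) at lower levels in Fert+. This split moved with the setting, at 1452 higher and 1382 lower with RLE factors and 1424 and 1370 with upper-quartile scaling. It was 828 and 953 with limma-voom, and 1324 and 875 with batch and parity in the edgeR model. The middle 50% of all tested IDs had log2 fold changes between -0.20 and 0.28, and the middle 90% between -0.65 and 0.77. The median log2 fold change was 0.57 in the higher and -0.50 in the lower set at an unadjusted p under 0.05. A log2 fold change above 1 together with that p was reached by 280 IDs, and one under -1 by 154. limma-voom called 0 IDs at an adjusted p under 0.05 (1781 at an unadjusted p under 0.05). DESeq2 called 280 of the 6676 IDs to which it gave an adjusted p (4.19%), 79 higher and 201 lower in Fert+. When the batch term was dropped, edgeR passed 1191 IDs (8.85%), with 624 higher and 567 lower, and 1179 of them lay at an unadjusted p under 0.05 with batch.

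The line difference was not spread evenly over levels of expression: the abundant IDs were mostly at lower levels in Fert+. IDs were put in classes by their mean CPM over the 12 libraries, a share of reads that also grows with transcript length. At 1000 CPM or more there were 97 IDs, of which 73 had a log2 fold change below 0 in the fit with batch, with a median of -0.31. Of these 97, 37 (38.1%) were lower and 3 (3.09%) higher in Fert+ at an unadjusted p under 0.05, against 9.01% and 12.1% of all tested IDs. Of the 1434 IDs between 100 and 1000 CPM, 304 (21.2%) were lower and 109 (7.6%) higher, and their median log2 fold change was -0.12. Between 10 and 100 CPM the order was the other way round with TMM factors, and this class was not counted under other factors. There 632 of 7347 IDs (8.6%) were lower and 1051 (14.3%) higher, with a median log2 fold change of 0.04. Between 1 and 10 CPM 223 of 4183 IDs (5.33%) were lower and 451 (10.8%) higher. Under 1 CPM, where the median standard error was 0.44, 17 and 18 of 401 IDs passed that p.

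DESeq2 gave the same direction for the abundant IDs at its adjusted threshold. Of the 13 IDs it called at 1000 CPM or more, 12 were lower in Fert+, and between 100 and 1000 CPM it called 86 lower and 9 higher. Between 10 and 100 CPM it called 103 lower and 69 higher. These are adjusted calls from which its filter on mean counts left out part of the class, so they cannot be set against the unadjusted edgeR counts. At an unadjusted p under 0.05 DESeq2 had 1653 higher and 1589 lower IDs over all levels. DESeq2 called 0 IDs under 10 CPM, but its filter on mean counts left 6786 of the 13462 tested IDs, the less abundant ones, without an adjusted p. The 0 therefore says nothing about line differences at that level. A fit with no scaling factor was not made for the level classes. The direction of the most abundant class did not turn with RLE factors or with upper-quartile scaling. In each, 40 of its IDs were lower and 2 higher at an unadjusted p under 0.05. With batch and parity in the model 28 were lower and 0 higher. The lower count depended on single libraries, at 16 without Fert- replicate 17 and 16 without Fert+ replicate 19, which are the only libraries of batch 2. Between 100 and 1000 CPM the counts were 130 lower and 33 higher without Fert- replicate 17, 142 and 37 without Fert+ replicate 19, and 42 and 11 without Fert+ replicates 15, 16, 18 and 19. Without those 4 libraries the class at 1000 CPM or more had 4 IDs lower and 1 higher, 63 of the 97 log2 fold changes below 0 and a median of -0.14. That fit has fewer libraries and no Fert+ library in batch 2.

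**Figure D2:**
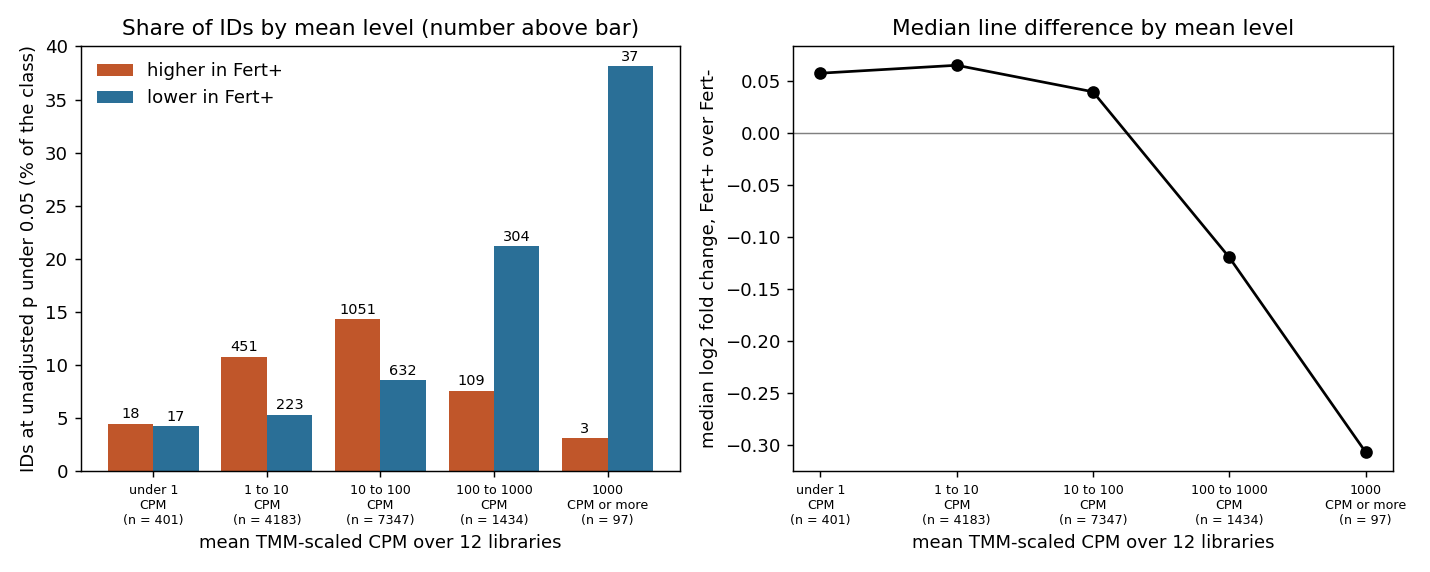
Left, the percent of the tested IDs of each level class at an unadjusted p under 0.05 in the edgeR fit with batch, higher (orange) or lower (blue) in Fert+, with the number of IDs above each bar. Right, the median log2 fold change of each class. The class at 1000 CPM or more holds 37 lower and 3 higher IDs and has a median of -0.31.

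How concentrated each library was reads largely the same counts again and is not a separate result. The IDs at 1000 CPM or more took 32.4% to 38.2% of the counts in Fert+ and 36.8% to 41.6% in Fert-. The 100 most abundant IDs of a library took 33.0%, 34.2%, 35.8% and 35.2% of its counts in Fert+ replicates 15, 16, 18 and 19. They took 38.5%, 37.8% and 38.6% in Fert+ replicates 21, 23 and 24. In Fert- replicates 17, 20, 25, 27 and 28 they took 39.6%, 37.3%, 42.1%, 40.9% and 39.2%. Fert+ replicates 15, 16, 18 and 19 thus lay below every Fert- library, whereas the other 3 Fert+ libraries lay within the Fert- range. Fert+ averaged 36.1% ± 2.20 (SD, n = 7) and Fert- averaged 39.8% ± 1.80 (SD, n = 5), a difference of -3.65 percentage points (exact permutation p = 0.0152, two-sided, adjusted p = 0.0758 over 5 library values). The difference was 0.297 percentage points within batch 1, -4.35 within batch 2 and -5.49 within batch 3, so it did not hold in batch 1. Over omissions of single libraries the adjusted exact permutation p ran from 0.0303 without Fert- replicate 20 (difference -4.27) to 0.197 without Fert- replicate 25 (-3.08). Without batch 4 the difference was -2.95, with an adjusted exact permutation p of 0.238. For the 10 most abundant IDs Fert+ averaged 17.2% ± 1.17 (SD, n = 7) of the counts, against 18.8% ± 1.43 (SD, n = 5) for Fert- (p = 0.0732 by exact permutation, adjusted p = 0.183). This smaller set differed by 0.407 percentage points within batch 1, -0.591 within batch 2 and -3.27 within batch 3.

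Among the 10 IDs with the highest mean level, 7 had a log2 fold change below 0 and 0 lay at an unadjusted p under 0.05. The most abundant one took a median of 6.99% of the counts in Fert+ (5.93% to 7.20%) and 7.88% in Fert- (6.65% to 8.95%), with overlapping lines (log2 fold change -0.33, SE 0.17, edgeR adjusted p = 0.284). The next one took 1.45% in Fert+ (1.20% to 1.59%) and 1.73% in Fert- (1.53% to 1.93%), again with an overlap (log2 fold change -0.37, SE 0.17, edgeR adjusted p = 0.245). The widest relative range in this set belonged to the third, at 1.27% to 2.05% in Fert+ and 0.113% to 1.9% in Fert-. Its log2 fold change of 0.52 had a standard error of 0.57, so the line difference was within the spread of the libraries.

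The number of IDs with any count differed less clearly. Fert+ replicates 15, 16, 18 and 19 had 17176, 17325, 17091 and 17014 such IDs. The range was 15935 to 16238 over Fert+ replicates 21, 23 and 24 and 16118 to 16609 over the Fert- libraries. The first 4 stayed above all other libraries when each library was thinned to the lowest total, at 16661 to 16939 IDs against 15865 to 16142 in the other Fert+ and 16025 to 16513 in the Fert- libraries. Between the lines the thinned number differed by 254 (16457 ± 471, SD, n = 7 against 16203 ± 207, SD, n = 5), which was within the spread of the libraries (exact permutation p = 0.292, adjusted p = 0.365). Within batch 1 the difference was -282.5, within batch 2 it was 426 and within batch 3 it was 434.

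A count of IDs whose libraries do not overlap between lines needs no model. For 143 IDs (1.06%) the lowest Fert+ library lay above the highest Fert- library, and for 166 IDs (1.23%) the highest Fert+ library lay below the lowest Fert- library, 2.3% of the tested IDs in both directions. Most of these differences were modest: the median ratio of group means was 1.55-fold for the higher and 1.39-fold for the lower set, and 29 and 22 IDs reached 2-fold. The lower set was again the more abundant, with a median of 48.1 CPM against 16.5 CPM in the higher set and 18.9 CPM over all tested IDs. At 1000 CPM or more 5 IDs were in the lower and 0 in the higher set. Fert+ replicates 21, 23 and 24 lay on the same side as the rest of their line by construction, but nearer to Fert-. In the higher set their median log2 difference from the Fert- mean was 0.39, against 0.76 for Fert+ replicates 15, 16, 18 and 19. In the lower set it was -0.29 against -0.62.

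The split between both directions depended on the scaling. With RLE factors 104 IDs were in the higher and 205 in the lower set, and with no scaling factor 346 were higher and 36 lower. TMM factors ran from 0.983 to 1.14 in Fert+ and from 0.885 to 1.01 in Fert-, so scaling lowered the Fert+ values relative to Fert-. Leaving out a library makes non-overlap easier to reach, so growth of the sets by itself says little. Without Fert+ replicate 15, 16, 18 or 19 they held 141 to 148 higher and 174 to 182 lower IDs. Without Fert- replicate 17 they held 188 and 201, and without Fert+ replicate 21 200 and 206. The sets were largest without Fert+ replicate 23, at 548 and 653 IDs, and next without Fert- replicate 20, at 378 and 365. Leaving out Fert- replicate 27 gave 258 and 309, Fert- replicate 28 gave 224 and 278, Fert- replicate 25 gave 222 and 232, and Fert+ replicate 24 gave 201 and 261.

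The 4 IDs shown in every library were taken by rule: in each direction the one with the smallest p, and the most abundant one that lay at an unadjusted p under 0.05 with lines that did not overlap. Non-overlap was thus part of the choice for the second of each direction, and their differences are descriptions. Their level in endometrium, over all 14 endometrium libraries and with no TMM scaling, is given beside them.

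ENSBTAG00000014835 was the most abundant ID in the lower set and ranked number 11 of all tested IDs. It was at 4815, 4049, 4222 and 5806 CPM in Fert+ replicates 15, 16, 18 and 19, and at 7764, 8009 and 5774 CPM in replicates 21, 23 and 24. In Fert- replicates 17, 20, 25, 27 and 28 it was at 9601, 9287, 11173, 8867 and 12805 CPM. The lines were 858 CPM apart at their nearest libraries, Fert+ replicate 23 and Fert- replicate 27, which share batch 3. The means were 5777 CPM ± 1595 (SD, n = 7) and 10347 CPM ± 1627 (SD, n = 5). The log2 fold change adjusted for batch was -0.72 (SE 0.21, edgeR adjusted p = 0.212), and without the batch term it was -0.84. DESeq2 gave it an adjusted p of 0.0258. The log2 difference was -0.70, -0.73 and -0.81 within batches 1, 2 and 3, so its size was close in all 3 batches. In endometrium it averaged 3246 CPM ± 1389 (SD, n = 14), against 7506 CPM in unscaled corpus luteum libraries.

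ENSBTAG00000005868 had the smallest p of the lower IDs. Its level was 26.5, 25.2, 26.6 and 37.1 CPM in Fert+ replicates 15, 16, 18 and 19, and 36.2, 34.1 and 34.4 CPM in replicates 21, 23 and 24. Fert- replicates 17, 20, 25, 27 and 28 stood at 56.8, 55.9, 48.3, 49.9 and 44.2 CPM. Fert+ replicate 19 was here the highest of its line, beside replicates 21, 23 and 24 rather than beside 15, 16 and 18. The log2 fold change was -0.62 (SE 0.11, edgeR adjusted p = 0.212, DESeq2 adjusted p = 0.000736), and within batches 1, 2 and 3 the log2 difference was -0.49, -0.61 and -0.74. Endometrium held it at 41.5 CPM ± 8.25 (SD, n = 14), close to the corpus luteum mean of 39.0 unscaled CPM.

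ENSBTAG00000005328 had the smallest p of the higher IDs. It stood at 24.9, 21.6, 23.4 and 20.7 CPM in Fert+ replicates 15, 16, 18 and 19, and at 19.7, 17.4 and 21 CPM in replicates 21, 23 and 24. The Fert- libraries 17, 20, 25, 27 and 28 were at 12.3, 14.2, 14.7, 13.0 and 11.5 CPM. All Fert+ libraries were above all Fert- libraries, and the nearest were Fert+ replicate 23 and Fert- replicate 25, which share batch 3. The log2 fold change was 0.61 (SE 0.12, edgeR adjusted p = 0.212), with log2 differences of 0.67, 0.75 and 0.48 within batches 1, 2 and 3. DESeq2 gave no adjusted p for it, because its filter on mean counts left it out. In endometrium the ID averaged 17.1 CPM ± 3.84 (SD, n = 14).

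ENSBTAG00000013098 was the most abundant ID of the higher set. Its level was 323, 273, 326 and 310 CPM in Fert+ replicates 15, 16, 18 and 19, and 338, 273 and 307 CPM in replicates 21, 23 and 24. Fert- replicates 17, 20, 25, 27 and 28 were at 238, 178, 240, 263 and 256 CPM. The gap between the lines was 9.63 CPM, which is smaller than the SD of either line (25.7 CPM in Fert+, n = 7, and 33.4 CPM in Fert-, n = 5). The log2 fold change was 0.35 (SE 0.13, edgeR unadjusted p = 0.0202 and adjusted p = 0.212, DESeq2 adjusted p = 0.1). Within batches 1, 2 and 3 the log2 difference was 0.60, 0.38 and 0.12, and the lowest Fert- library, replicate 20, belongs to batch 1. Its level in endometrium was 78.7 CPM ± 11.4 (SD, n = 14), below the corpus luteum mean of 280 unscaled CPM. Fert+ replicates 15, 16, 18 and 19 covered nearly the same range here as replicates 21, 23 and 24.

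**Figure D3:**
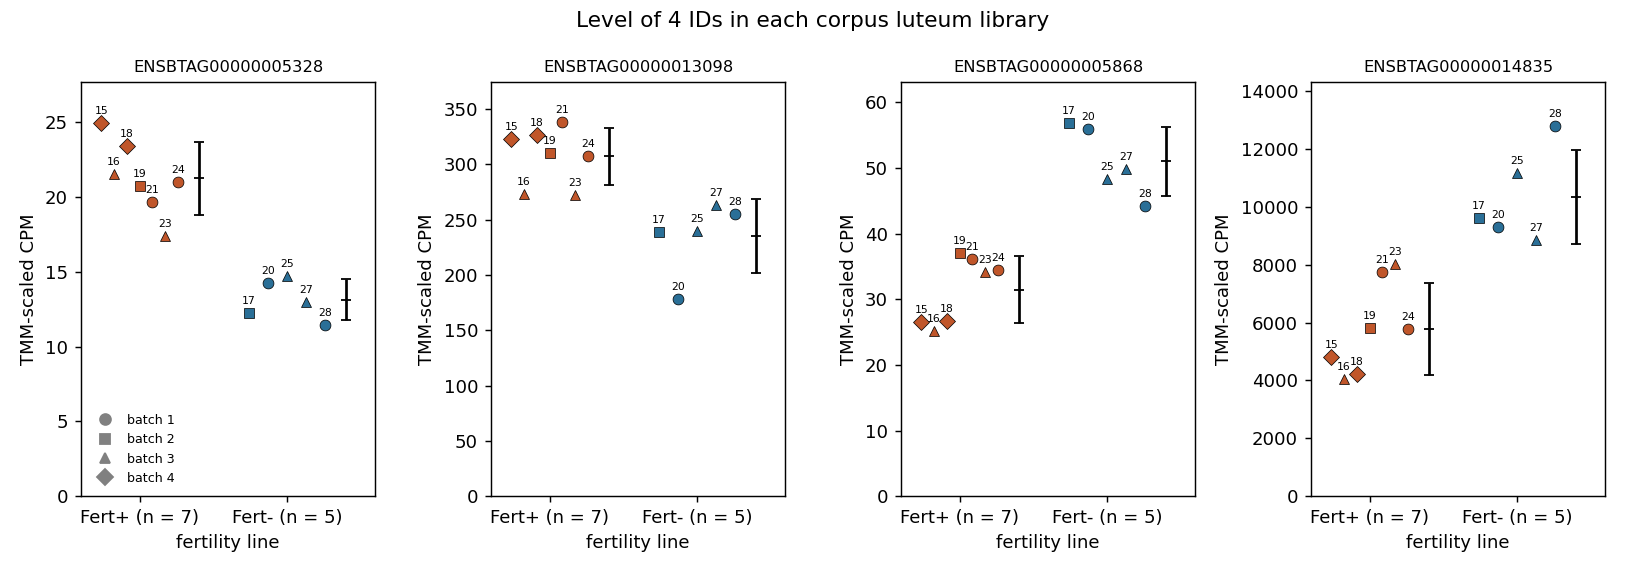
TMM-scaled CPM of 4 IDs in each corpus luteum library (linear axes from 0), one panel per ID, with Fert+ in orange, Fert- in blue, the batch as the marker shape, the replicate number beside each point and the mean ± SD as a bar. The lines do not overlap in any panel, which was part of the choice for ENSBTAG00000013098 and ENSBTAG00000014835.

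With batch in the model the line difference is an average over batches 1, 2 and 3, which in an ordinary least-squares fit weigh 40%, 20% and 40%. Batch 4 has no Fert- library and carries no weight. Within batch 1, with 2 libraries of each line, 0 IDs passed the adjusted threshold in edgeR (1338 of 13210 at an unadjusted p under 0.05, 10.1%), and within batch 3 0 passed (363 of 13527, 2.68%). Batch 1 leaned to lower levels in Fert+ (565 higher and 773 lower at that p), and batch 3 to higher levels (219 higher and 144 lower). Across the 13462 tested IDs, which are not independent, the log2 differences of batch 1 and batch 3 gave r = 0.0796 (Pearson) and rho = 0.0617 (Spearman), and 52.1% of IDs had the same sign. For batches 2 and 3 r was 0.512 and rho 0.549, and for batches 1 and 2 r was 0.293 and rho 0.308. No library is shared by any of these pairs of batches. In batches 2 and 3 a Fert+ library is one of the 4 that stand apart, and in batch 1 none is. Of all libraries, Fert- replicates 17 (batch 2) and 28 (batch 1) were least like their most alike library, at 0.953 and 0.952. The part of single libraries in the values between batches was not tested. One direction in all 3 batches was found for 3145 IDs higher (23.4%) and 2617 IDs lower (19.4%) in Fert+, and at 2-fold or more in each batch for 15 and 22 IDs.

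IDs chosen in one batch were then read in another. Of the 755 IDs lower in Fert+ at an unadjusted p under 0.05 within batch 1 and also tested over all batches, 58.8% were lower within batch 3, against 46.4% of all IDs. Of the 563 IDs higher within batch 1, 50.3% were higher within batch 3, against 53.6% of all IDs. In the other direction, 47.9% of 211 IDs higher within batch 3 were higher within batch 1 (50.7% of all IDs), and 45.3% of 137 lower IDs were lower (49.3% of all IDs). Batch 2 shared more with each of them: 79.6% of the higher and 75.0% of the lower IDs from batch 1 kept their direction there, against 52.6% and 47.4% of all IDs. For the IDs from batch 3 these shares were 78.2% and 72.3%, against 52.5% and 47.4%. These values are shares in batches of 2 to 4 libraries, and no test was made of them.

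Single libraries within a batch showed where the larger differences lay. In batch 3, both Fert- libraries were of parity 3. Fert+ replicate 16, also of parity 3, was more than 2-fold above their mean for 1417 IDs and more than 2-fold below it for 424. Fert+ replicate 23, of parity 4, differed in this way for 213 and 174 IDs. The Fert- libraries of this batch differed from each other for 442 and 327 IDs, so replicate 23 was nearer to their mean than they were to each other; a mean of 2 libraries is also less noisy than a single one. In batch 2, where both libraries were of parity 4, Fert+ replicate 19 was above Fert- replicate 17 for 1883 IDs and below it for 1098. In batch 1 Fert+ replicates 21 and 24 were above the Fert- mean for 344 and 359 IDs and below it for 651 and 797, while Fert- replicates 20 and 28 differed from each other for 606 and 917 IDs. Batch 1 compares parity 2 (Fert+) with parity 4 (Fert-), so line and parity cannot be told apart there. The pairs that match in batch and parity, replicate 16 with 25 and 27 and replicate 19 with 17, both rest on Fert+ libraries of the 4 that stand apart.

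**Figure D4:**
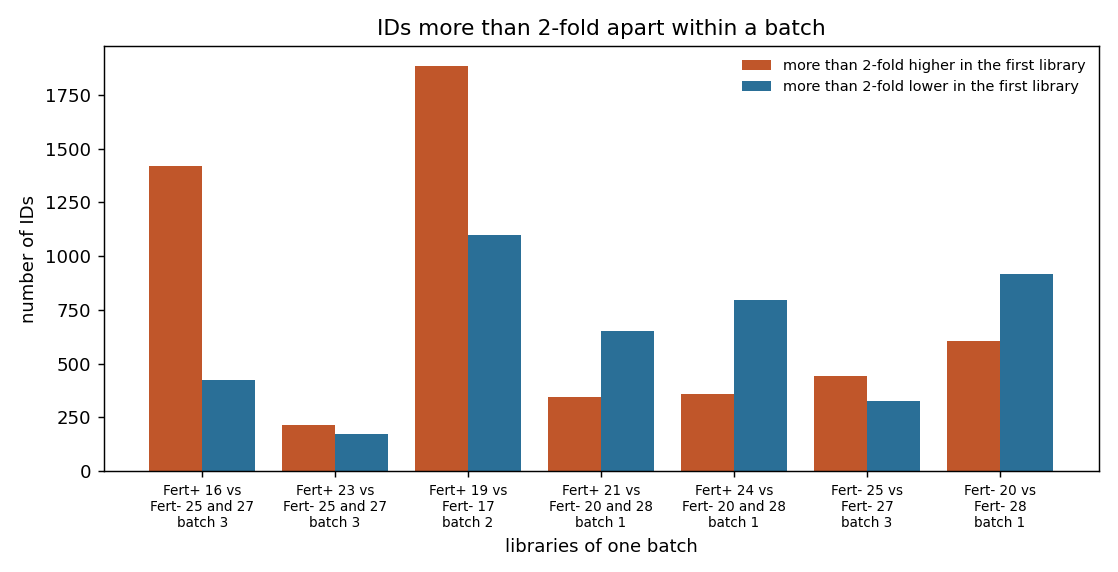
Number of tested IDs more than 2-fold higher (orange) or lower (blue) in the first library than in the other library, or the mean of the others, of the same batch. Fert+ replicates 16 and 19 stand out with 1417 and 1883 higher IDs, while Fert+ replicate 23 differs from the Fert- mean of its batch for 213 and 174 IDs.

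Parity entered as a number beside batch gave 2199 IDs at an unadjusted p under 0.05 and 0 at the adjusted threshold (lowest adjusted p 0.305) in edgeR. With parity in place of batch these were 4094 and 0 (lowest adjusted p 0.0721). The direction of the abundant class held in both, with 28 and 52 of 97 IDs lower and 0 and 1 higher at an unadjusted p under 0.05.

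The line difference was also described by tissue preference. The preference is set in part by the mean of the same corpus luteum libraries, 7 Fert+ and 5 Fert-. An ID at higher levels in Fert+ thus reaches the luteal class more easily and one at lower levels the endometrial class, so the classes are not independent of the line contrast and their directions are a description. At least 4-fold higher in corpus luteum than in endometrium (unscaled CPM with 0.5 added) were 507 tested IDs. Of these, 322 (63.5%) had a log2 fold change above 0, with a median of 0.15, and 87 (17.2%) were higher and 34 (6.71%) lower in Fert+ at an unadjusted p under 0.05. At least 4-fold higher in endometrium were 684 tested IDs, of which 485 (70.9%) had a log2 fold change below 0, with a median of -0.26, and 25 (3.65%) were higher and 93 (13.6%) lower. Other readouts of these classes did not share those directions in full. Lines did not overlap for 2 higher and 4 lower IDs of the luteal class and for 5 higher and 4 lower IDs of the endometrial class. DESeq2 called 14 higher and 11 lower IDs in the luteal class and 0 higher and 8 lower in the endometrial class. The remaining 12271 IDs had a median of 0.03, close to 0.03 over all tested IDs. The luteal-preferring IDs together took 12.1% to 14.6% of the counts in Fert+ (median 13.7%) and 8.89% to 13.6% in Fert- (median 11.4%), with an overlap of the lines. The lowest were Fert- replicates 28 and 17 at 8.89% and 9.43%. The endometrium-preferring IDs took 0.771% to 1.13% in Fert+ and 0.839% to 1.58% in Fert-, and the highest were again Fert- replicates 28 and 17 at 1.58% and 1.34%. Unlike the split by abundance, these shares did not set Fert+ replicates 15, 16, 18 and 19 apart from replicates 21, 23 and 24. Without Fert- replicate 28 the medians of the log2 fold changes were 0.08 and -0.14, and without Fert- replicate 27 they were 0.23 and -0.32. With batch and parity in the model they were 0.07 and -0.16, and with parity in place of batch 0.02 and -0.23. Without Fert+ replicates 15, 16, 18 and 19 they were 0.14 and -0.21.

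The calls of DESeq2 and their dependence on single libraries were followed through all 12 omissions. All 280 called IDs had an unadjusted p under 0.05 in edgeR with batch, and 256 were also called by edgeR without batch. An absolute log2 fold change above 1 in DESeq2 was reached by 44 of them. The lines did not overlap for 23 of the 79 higher and 66 of the 201 lower calls. Without Fert+ replicate 23 there were 2702 calls, which included 279 of the 280. Without Fert- replicate 20 there were 794. Leaving out Fert+ replicate 19 or Fert- replicate 17 gave 7 and 8 calls, and 4 of the 280 were among them in each. The count was 35 without Fert- replicate 28, 39 without Fert+ replicate 16, 64 without Fert+ replicate 21, 120 without Fert- replicate 25, 142 without Fert+ replicate 15 or 18, 170 without Fert+ replicate 24 and 223 without Fert- replicate 27. In 4 of these omissions (Fert+ replicates 15, 18 and 24 and Fert- replicate 27) the filter of DESeq2 left 119 to 186 of the 280 IDs with no adjusted p. The tool's filter on mean counts had left 6786 IDs without an adjusted p. With that filter off there were 197 calls, 71 higher and 126 lower, and 118 of the 280 were among them. In edgeR with batch, the 2845 IDs at an unadjusted p under 0.05 became 1539 without Fert+ replicate 16, 1104 without Fert- replicate 17, 1105 without Fert+ replicate 19 and 4373 without Fert+ replicate 23. Without Fert+ replicate 23 it called 908 IDs at the adjusted threshold, 447 higher and 461 lower, and 217 of them were DESeq2 calls from all 12 libraries. Without Fert- replicate 20 or without Fert- replicate 27 it called 1 ID. Without Fert+ replicates 15, 16, 18 and 19 edgeR called 0 IDs (519 at an unadjusted p under 0.05, 178 higher and 341 lower) and DESeq2 called 8. That omission removes batch 4 and the only Fert+ library of batch 2, so fewer libraries inform the line difference. Leaving out Fert+ replicate 19 or Fert- replicate 17 also ends the line comparison in batch 2. Fert+ replicates 15 and 18, of batch 4, carry no weight in the difference. Leaving out 15 or 18 still lowered the edgeR count at that unadjusted p, to 2349 and 2341. The part of library number in these falls was not tested.

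**Figure D5:**
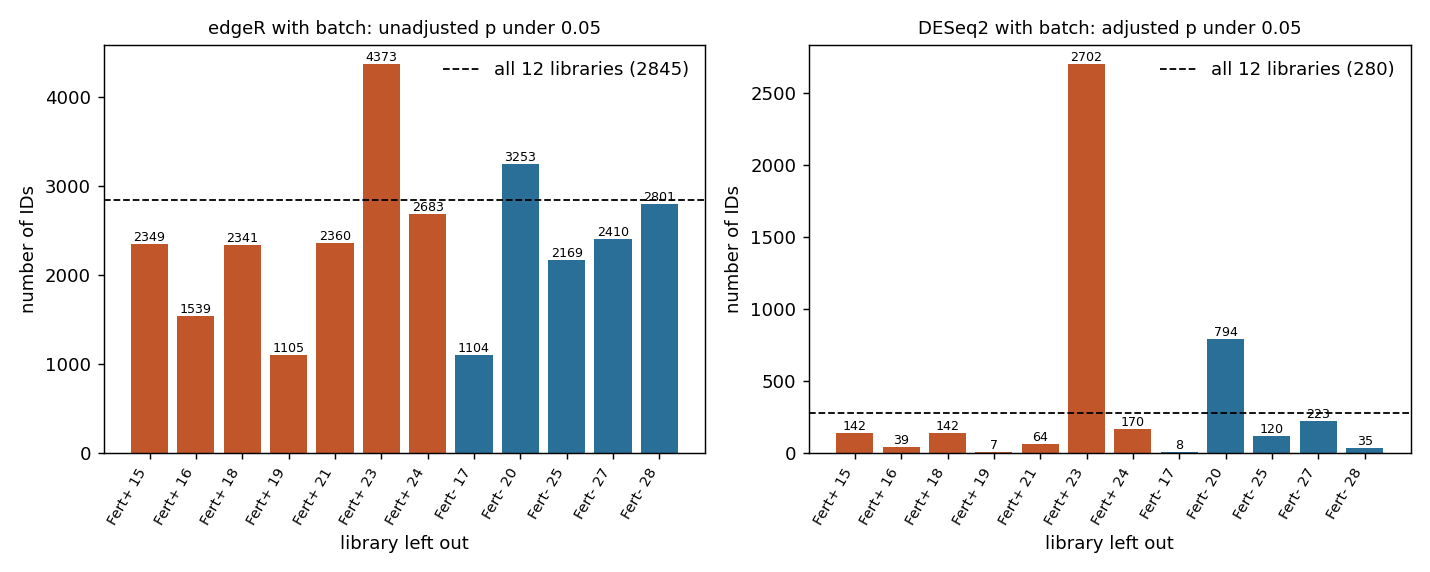
Number of IDs after leaving out the library named on the x axis (Fert+ in orange, Fert- in blue), at an unadjusted p under 0.05 in edgeR (left) and at an adjusted p under 0.05 in DESeq2 (right), both with batch. The dashed lines mark all 12 libraries (2845 and 280), and the highest bars, 4373 and 2702, belong to Fert+ replicate 23.

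Levels varied about as much within one line as within the other. The median SD of log2 CPM over the tested IDs was 0.263 in Fert+ and 0.295 in Fert-, and 42.3% of IDs had the larger SD in Fert+. That share was 52.2% without Fert- replicate 17, 49.8% without Fert- replicate 28 and 38.1% without Fert+ replicate 23, so its side of 50% rested on single Fert- libraries. The median standard error of a line difference was 0.18 on the log2 scale, against a median absolute log2 fold change of 0.24.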

How the data were processed

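Polyadenylated RNA of 26 libraries was sequenced, 12 of them corpus luteum. Per the submitters' processing notes, the authors' tools were STAR 2.3.0, featureCounts, Trim Galore, CASAVA 1.9 and FastQC 0.10.0, with the build UMD3.1. Not given in the sources used here are the annotation release, the strand setting and how reads with several matches were counted, and overlapping, antisense and near-identical genes are therefore uncertain. The deposited files hold raw counts per gene ID, used as deposited. In R 4.3.3 the corpus luteum libraries were fitted alone with edgeR 4.0.16 (filterByExpr by line, TMM, robust quasi-likelihood F test, batch as a factor, Benjamini-Hochberg), and with DESeq2 1.42.0 (independent filtering set for an adjusted p of 0.05) and limma 3.58.1 (voom with sample weights) as alternatives. Log2 fold changes are Fert+ over Fert-. Single library values were compared by exact permutation of the line labels. Among the 31 pairs of libraries of one line, counts differed beyond sampling noise in each (lowest chi-square divided by its degrees of freedom 16.5). Scripts were tested on simulated data. IDs were named by a rule: without symbols, at most 2 per direction, the smallest p and the highest mean CPM at an unadjusted p under 0.05 with no overlap. The libraries, rules and gene lists were chosen with earlier results of these data known. Endometrium files were used only for tissue preference and the levels given. The gene name table used here has the assembly ARS-UCD2.0 and matched 0 IDs.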

Additional observations from a re-analysis of the deposited data

Results flagged for a closer look

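In ENSBTAG00000013098, Fert- replicate 20 was at 178 CPM and the next Fert- library at 238 CPM, a gap that is large against the range of the 5 libraries. It was the 1 library set apart in this way among 18 groups of values checked (5 library values and 4 IDs in each line), and chance sets one apart in about 1 of 20 groups. Without this library the log2 fold change of the ID was 0.25 in place of 0.35.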

How the results depend on the processing

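The number of IDs at an adjusted p under 0.05 with batch was 0 with RLE factors, upper-quartile scaling, a stricter filter, limma-voom, batch and parity, parity in place of batch, without batch 4 and at an adjusted p under 0.10. It was 4 with no filter on low counts, 280 with DESeq2, 1191 with no batch term and 0 to 908 over the omissions of single libraries. At an unadjusted p under 0.05 there were 2845 IDs, or 1781 with limma-voom, 4667 with no batch term, 519 without Fert+ replicates 15, 16, 18 and 19 (chosen after seeing the data) and 1104 to 4373 over single omissions. Without batch the 1191 calls became 0 with no filter on low counts, 0 without batch 4, 0 without those 4 libraries, 2976 with DESeq2, 5035 with limma-voom, 3485 at an adjusted p under 0.10, and 0 to 3241 over single omissions. DESeq2 with batch made 144 calls without batch 4 and 195 with its filter set for an adjusted p of 0.10. The IDs that did not overlap numbered 346 higher and 36 lower with no scaling factor, 236 and 307 without the 4 libraries, and 141 to 548 higher and 174 to 653 lower over single omissions. The line difference in total count, 450506, was -570913 without batch 4 and -199998 to 1268305 over single omissions, where its adjusted exact permutation p was 0.385 or more. Over single omissions the difference in IDs with a count was 201.9 to 433.5, or 173.8 to 352.8 after thinning (130.6 and 145.8 without batch 4), the share of the 10 most abundant IDs -1.95 to -1.09 and that of the 100 most abundant -4.27 to -3.08 percentage points, and the percent of IDs with the larger SD in Fert+ 38.1 to 52.2. The 4 named IDs kept their sign in every setting run. With edgeR and no batch term all 4 passed (adjusted p 0.0475 to 0.0483), and without Fert+ replicate 23 3 of them did, ENSBTAG00000013098 being the exception (lowest adjusted p over omissions 0.0933). No paired analysis was possible because no replicate number occurs in both lines. Depth was not reduced for the line contrast, so its part in these limits was not tested.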

Other observations

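The third most abundant ID of the corpus luteum took 0.113% of the counts in Fert- replicate 28, and the next lowest Fert- library was at 0.952%. The same library had the lowest share of luteal-preferring IDs, 8.89%, and the highest share of endometrium-preferring IDs, 1.58%. The part of tissue makeup in these values was not tested. No ID had a count in every Fert- library and 0 counts in all Fert+ libraries, while 3 IDs had a count in every Fert+ library and 0 counts in all Fert- libraries.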
